A study of Mus musculus with 12 samples.

Results

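The 33 genes described here carry out mitosis, the stage of the cell cycle in which duplicated chromosomes are condensed, attached to a spindle and pulled apart. They comprise 7 kinases, 3 cyclins, 4 genes of the anaphase-promoting complex and its targets, the 3 non-kinase subunits of the chromosomal passenger complex, 5 kinetochore and centromere proteins, 5 kinesins, 5 spindle, midzone and cytokinesis proteins, and 1 topoisomerase. Members were all array probes annotated to these 33 symbols, whatever their values. The annotation listed 64 probes for 32 of the genes, and 25 genes passed the detection filter, of 11754 genes tested in all.

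Cells enter mitosis when cyclin-dependent kinase 1, bound to its cyclin, phosphorylates many proteins at once. The spindle checkpoint then holds the anaphase-promoting complex inactive until every kinetochore is attached, after which that complex marks cyclin B and securin for destruction and separase cuts the cohesin rings. Transcripts of these genes build up late in the cell cycle and are scarce in resting cells. Bone marrow holds blood precursors that divide all the time, while the fibres of skeletal muscle do not divide.

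Expression was measured on 12 one-colour Illumina bead arrays of fresh-frozen mouse tissue. The groups were 4 osteosarcomas (malignant tumours of bone), 4 leiomyosarcomas (malignant tumours named for smooth muscle), 2 normal bone marrows and 2 normal muscles. The labels gave all 12 samples, the normal tissues included, the genotype p53 flow/flox (in the labels' spelling), stated that no treatment was used, and described transgenic mice with a p53 mutation that were watched until tumours or limb paralysis appeared. They named no recombinase, promoter, age or sex, and did not state that each sample came from its own animal: muscle 1 and bone marrow 2 carry the same animal code. P-values therefore measure only the spread between these samples, which may in part be technical, and with so few arrays all estimates are coarse.

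Promoter sequences are shown for the 6 members with the largest mean of the 4 tumour minus normal differences among those with an entry in the RefSeq promoter table, so that the stretches near their starts can be read beside their values. Kif23 is among the 6 by its brightest probe only: its mean was 2.91 by that probe and 1.29 by the brighter RefSeq mRNA probe, against 1.83 for Prc1, the next in order after the 6. Each window runs from 250 bases before to 50 after the annotated start (assembly GRCm38.p6), 5′ to 3′ on the gene's own strand. Capitals mark matches to 2 motifs known from cell cycle promoters, searched on both strands: the cell cycle homology region (TTTGAA, its variant TTCGAA or the variant TTTAAA) and the CCAAT box (CCAAT, which reads ATTGG when it lies on the other strand).
Kif23 (chr9:61946750-61947049, minus strand): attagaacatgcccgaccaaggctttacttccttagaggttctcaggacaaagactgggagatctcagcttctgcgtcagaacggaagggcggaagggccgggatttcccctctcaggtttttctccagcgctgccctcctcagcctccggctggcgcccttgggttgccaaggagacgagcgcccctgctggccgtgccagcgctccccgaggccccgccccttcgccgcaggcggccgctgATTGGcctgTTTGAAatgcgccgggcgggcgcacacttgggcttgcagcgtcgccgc
Cdc20 (chr4:118437294-118437593, minus strand): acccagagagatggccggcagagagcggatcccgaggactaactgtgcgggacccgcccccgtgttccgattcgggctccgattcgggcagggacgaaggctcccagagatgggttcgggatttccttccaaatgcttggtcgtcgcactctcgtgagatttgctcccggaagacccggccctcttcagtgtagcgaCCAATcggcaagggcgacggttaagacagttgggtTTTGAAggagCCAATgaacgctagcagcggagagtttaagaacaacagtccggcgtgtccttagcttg
Anln (chr9:22389157-22389456, minus strand): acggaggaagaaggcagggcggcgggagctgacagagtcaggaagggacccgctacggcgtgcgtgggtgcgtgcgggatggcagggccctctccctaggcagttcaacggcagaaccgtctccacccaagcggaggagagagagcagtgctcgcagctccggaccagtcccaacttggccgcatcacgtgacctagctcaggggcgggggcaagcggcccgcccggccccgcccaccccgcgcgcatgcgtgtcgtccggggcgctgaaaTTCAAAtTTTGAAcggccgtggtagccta
Plk1 (chr7:122159185-122159484, plus strand): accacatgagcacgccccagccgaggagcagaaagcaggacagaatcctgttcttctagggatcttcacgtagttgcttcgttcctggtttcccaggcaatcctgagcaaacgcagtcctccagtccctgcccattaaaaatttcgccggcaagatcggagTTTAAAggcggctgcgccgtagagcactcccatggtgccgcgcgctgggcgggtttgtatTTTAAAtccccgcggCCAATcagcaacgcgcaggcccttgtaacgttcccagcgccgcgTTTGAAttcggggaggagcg
Cenpa (chr5:30666636-30666935, plus strand): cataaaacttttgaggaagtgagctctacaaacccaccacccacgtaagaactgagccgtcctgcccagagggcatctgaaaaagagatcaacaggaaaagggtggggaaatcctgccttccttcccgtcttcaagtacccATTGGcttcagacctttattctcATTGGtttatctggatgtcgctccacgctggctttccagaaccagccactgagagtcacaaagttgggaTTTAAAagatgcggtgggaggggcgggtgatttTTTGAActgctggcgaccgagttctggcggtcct
Cdk1 (chr10:69352863-69353162, minus strand): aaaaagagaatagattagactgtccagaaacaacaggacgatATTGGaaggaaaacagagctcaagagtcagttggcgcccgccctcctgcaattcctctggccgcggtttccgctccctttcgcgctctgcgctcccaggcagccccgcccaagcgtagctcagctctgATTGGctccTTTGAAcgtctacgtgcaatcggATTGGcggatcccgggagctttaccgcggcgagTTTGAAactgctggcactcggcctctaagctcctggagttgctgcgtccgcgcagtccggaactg
Each of the 6 windows held at least 1 TTTGAA within 71 bases of the start: 71 and 15 bases before it in Cdk1, 18 before in Cdc20, 2 after it in Kif23, 16 after in Cenpa, 21 and 28 after in Anln and 30 after in Plk1. All but Anln also held a CCAAT box, with 3 in the Cdk1 window. Of the 33 members, 28 matched the table, with 29 promoters; Aurkb, Ccna2, Kif20a, Tpx2 and Incenp had no entry. A cell cycle homology region was found in 26 of the 29 windows (89.7%), against 9458 of all 32851 promoters of this length (28.8%), and a CCAAT box in 22 (75.9%), against 37.4%. Both motifs stood together in 75.9% of member windows and 11.3% of all windows. Mad2l1, Nuf2 and Nusap1 held no homology region in this window. An E2F site, searched as TTTCGCGC, as TTTGGCGC, as TTCCCGCC or as TTGGCGGG (which can share letters with a CCAAT box on the other strand), was found in 1 member window, that of Cdk1 (3.45%), against 3.77% of all promoters. The motifs were picked as known ones and a match describes letters only.

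Between 14169 and 18100 of 45281 probes were detected per array (31.3% to 40%). Levels are given as log2 of the normalised signal, where the dimmest detected probe lay between 5.12 and 5.62 and the median of all genes between 6.92 and 7.08 on every array. Replicates correlated across genes at 0.916 to 0.956 in osteosarcoma, 0.946 to 0.974 in leiomyosarcoma, 0.983 in bone marrow and 0.935 in muscle. Tissue labels were checked against marker genes. Osteosarcomas had 5 to 6 of 6 osteoblast markers detected (Col1a1, Sp7 and Bglap among the list). Leiomyosarcomas had only 4 to 5 of 8 smooth muscle markers, where osteosarcomas and muscles each had 4 to 6. Myh11 and Cnn1 were detected on 0 of 4 leiomyosarcomas, so the data do not bear the name leiomyosarcoma out in these genes. Myh11 was not detected in osteosarcoma either. Lmod1 was detected on no array of any tissue, so its absence says nothing about the label. Bone marrow had 10 of 10 neutrophil lineage markers such as Ltf and Mpo and 5 of 6 erythroid markers such as Alas2, and muscle 8 of 8 skeletal muscle markers such as Ckm and Acta1. Osteosarcoma 1 stood apart in skeletal muscle markers, with a summed linear signal of 63000 against 262 to 6740 in the other osteosarcomas and 314000 to 319000 in muscle. The background constant of the array was lower on 6 arrays (80.75 to 84.17 in both normal tissues and leiomyosarcomas 1 and 2) than on the other 6 (99.32 to 110.1).

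Most of the tested mitosis genes had higher levels in both tumours and in bone marrow than in muscle. Ttk, Nuf2 and Cenpf were dim in the tumours too, and Aurka, Kif23 and Cenpa were among the 6 detected on both muscles. Over the 25 tested members the median level was 8.53, 9.63, 9.45 and 8.92 in osteosarcoma, 8.48, 9.06, 9.07 and 8.85 in leiomyosarcoma, 9.67 and 9.87 in bone marrow, and 5.39 and 4.82 in muscle. Both marrows lay above all 8 tumours, and both muscles far below them. A gene was called where the limma model gave a Benjamini-Hochberg adjusted p under 0.05 over all genes and a log2 difference of at least 1 in size. In osteosarcoma against muscle 22 of 25 members were called higher and 0 lower, where 18.5% of all genes were called higher and 14.5% lower. Leiomyosarcoma against muscle also gave 22 higher and 0 lower, against 20.1% and 15.1% of all genes. The median difference over the members was 3.30 and 3.19 on the log2 scale, beside 0.06 and 0.08 over all genes tested. These sizes depended on the background handling: the member median was 2.37 and 1.77 on the matrix values without subtraction and 2.84 and 2.20 with an offset of 50. Groups did not overlap for 24 members between osteosarcoma and muscle, against 29.5% of all genes, and for 23 between leiomyosarcoma and muscle, against 32.9%. In these bulk samples fewer dividing cells and less RNA per cell cannot be told apart.

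**Figure D1:**
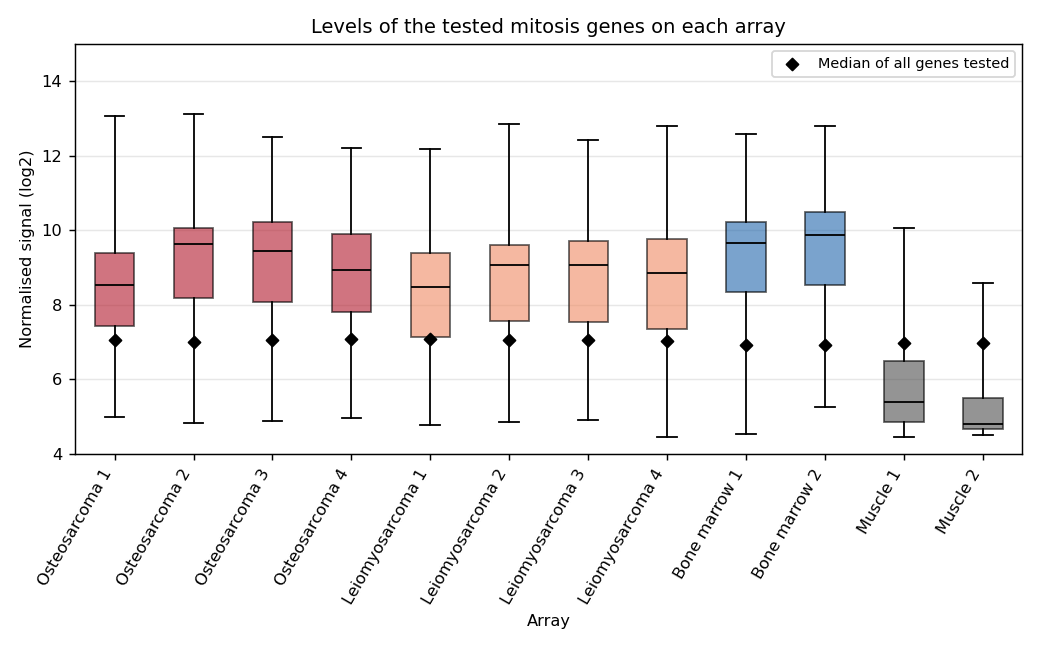
Normalised log2 signal of the 25 tested mitosis genes (y axis) on each of the 12 arrays (x axis). Boxes span the quartiles with the median as a line, whiskers reach the lowest and highest gene, and diamonds mark the median of all genes tested. Member medians are 8.53 to 9.63 in osteosarcoma, 8.48 to 9.07 in leiomyosarcoma, 9.67 and 9.87 in bone marrow and 5.39 and 4.82 in muscle, while the diamonds stay between 6.92 and 7.08.

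Of the 25 members 13 were detected on neither muscle, 6 on 1 of 2 and 6 on both, while 24 were detected on both marrows and 22 on all 4 arrays of each tumour. Where a gene was detected on neither muscle its difference has only a lower bound, the mean of the bright group over the dimmest detected signal of each muscle array, which is given as "at least". Members that pass the filter because they are high in some group had to differ from one that lacks them, so these counts describe the tissues and do not stand for all 33 genes. The other 8 members cannot be compared: Bub1, Ccna2, Ccnb2, Ube2c, Cenpe, Kif20a and Racgap1 had probes detected on 0 of 12 arrays, and Ccnb1 is not analysed here. These include all 3 cyclins, the partners of Cdk1, and Ube2c, the enzyme that starts ubiquitin chains on them. The 7 with a probe were detected on neither marrow, where Cdk1 was.

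**Figure D2:**
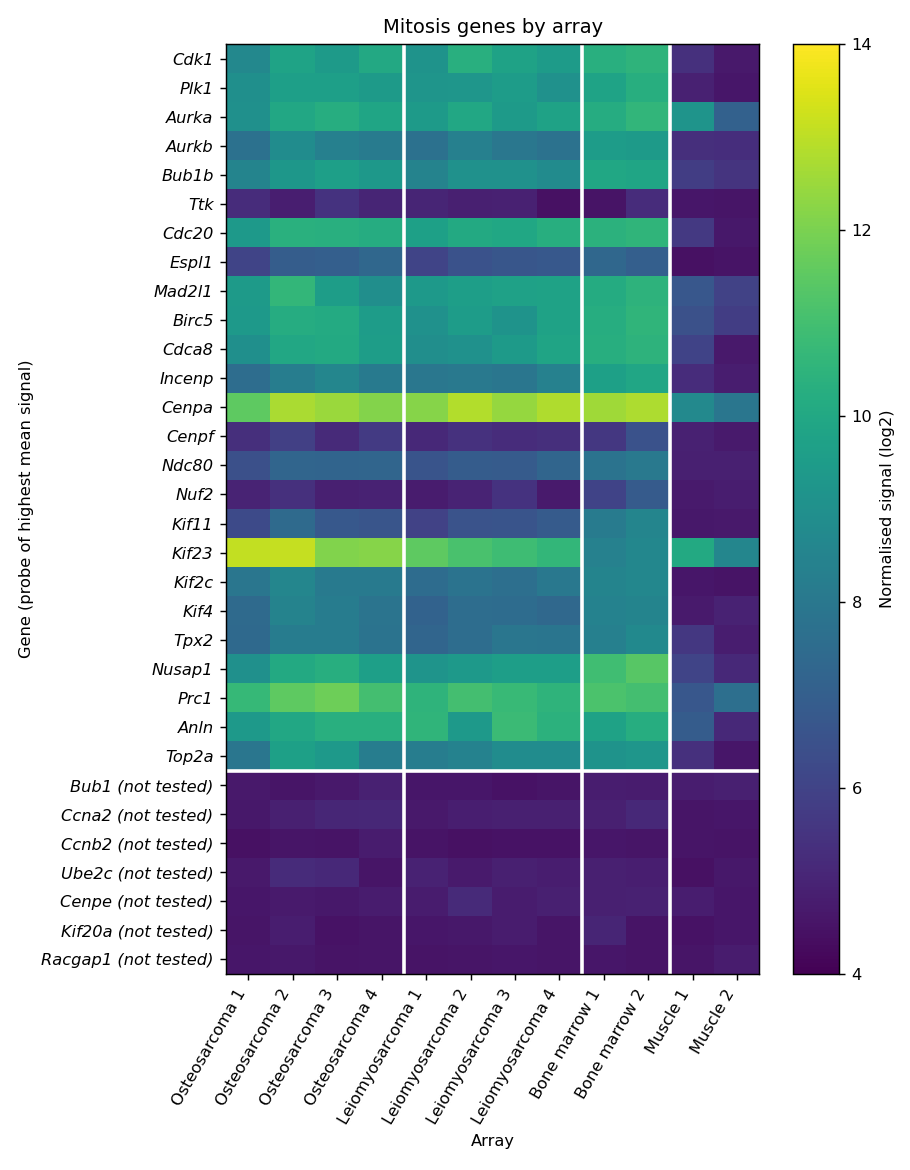
Normalised log2 signal (colour) of each mitosis gene with a probe (rows) on each array (columns), 1 probe a gene, with white lines between tissues. The 25 tested genes are above the horizontal line and the 7 that were detected on no array below it; the muscle columns are dark for most genes, and Kif23 is brightest in osteosarcoma.

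Among the mitotic kinases, Cdk1, whose activity with cyclin B starts mitosis, read 8.67, 9.80, 9.45 and 10.03 in osteosarcoma, 9.14, 10.31, 9.78 and 9.48 in leiomyosarcoma, 10.33 and 10.50 in bone marrow, and 5.38 and 4.70 in muscle. Every tumour lay above both muscles and below both marrows. Cdk1 was not detected on either muscle, so it was at least 14.7-fold higher in osteosarcoma (adjusted p = 7.11e-06) and at least 16.7-fold higher in leiomyosarcoma (adjusted p = 5.15e-06). Plk1, polo-like kinase 1, which matures centrosomes and helps build the spindle, read 8.96, 9.63, 9.65 and 9.46 in osteosarcoma, 9.20, 9.24, 9.53 and 9.04 in leiomyosarcoma, 9.80 and 10.29 in bone marrow, and 4.93 and 4.60 in muscle. It had the same order of groups, with no overlap between tumours, marrow and muscle, and was at least 14.1-fold higher in osteosarcoma and at least 12.5-fold higher in leiomyosarcoma than in muscle. Against bone marrow neither kinase was called: Cdk1 differed by -0.92 ± 0.40 in osteosarcoma and -0.74 ± 0.40 in leiomyosarcoma (± SE, log2), and Plk1 by -0.62 ± 0.25 and -0.79 ± 0.25.

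Aurka, Aurora A, the kinase of the spindle poles, was a member whose value rested on 1 muscle. It read 9.03, 9.99, 10.21 and 9.89 in osteosarcoma, 9.45, 9.99, 9.43 and 9.76 in leiomyosarcoma, 10.20 and 10.59 in bone marrow, and 9.17 and 7.11 in muscle. Muscle 1 lay above osteosarcoma 1 and below every leiomyosarcoma, while muscle 2 lay below all other arrays. The called difference from muscle was 1.64 ± 0.48 in osteosarcoma (adjusted p = 0.0162) and 1.52 ± 0.48 in leiomyosarcoma (adjusted p = 0.0222). Without muscle 1 these were 2.67 and 2.55, and without muscle 2 they were 0.61 (adjusted p = 0.283) and 0.49 (adjusted p = 0.383) and not called. With the background level as a block they were 1.77 (adjusted p = 0.127) and 1.58 (adjusted p = 0.0526). Muscle 1 also had the higher summed signal of erythroid markers (12600, against 854 in muscle 2) and of macrophage markers (2890, against 1050). Neutrophil lineage markers went the other way (1700, against 3450 in muscle 2). B cell markers (252 and 241) and T cell markers (139 and 139) hardly differed. The part of these cells in the result was not tested.

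Aurkb, Aurora B, the kinase of the chromosomal passenger complex, read 7.71, 8.88, 8.36 and 8.16 in osteosarcoma, 7.72, 8.34, 7.97 and 7.77 in leiomyosarcoma, 9.53 and 9.46 in bone marrow, and 5.35 and 5.30 in muscle. It was at least 6.35-fold higher in osteosarcoma and at least 5.06-fold higher in leiomyosarcoma than in muscle, and was lower than in marrow in both tumours, with differences of -1.22 ± 0.29 (adjusted p = 0.00655) and -1.55 ± 0.29 (adjusted p = 0.00146). The osteosarcoma call was lost without bone marrow 1 (adjusted p = 0.0546) and with the background block (adjusted p = 0.145). Bub1b, the checkpoint kinase BubR1, ranged over 8.53 to 9.63 in osteosarcoma, 8.48 to 9.08 in leiomyosarcoma, 9.87 to 9.94 in bone marrow and 5.51 to 5.83 in muscle. It was higher than in muscle in osteosarcoma (3.52 ± 0.29) and leiomyosarcoma (3.19 ± 0.29). Against marrow it passed in leiomyosarcoma (-1.04 ± 0.29, adjusted p = 0.0159) but not without bone marrow 1, bone marrow 2 or leiomyosarcoma 1. Ttk, the kinase Mps1 that starts checkpoint signalling at unattached kinetochores, was detected on 2 osteosarcomas and on 0 arrays of the other groups, and no comparison of it was called.

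Of the genes around the anaphase-promoting complex, Cdc20, the activator that the checkpoint restrains, read 9.38, 10.33, 10.31 and 10.21 in osteosarcoma, 9.67, 10.07, 9.97 and 10.26 in leiomyosarcoma, 10.43 and 10.55 in bone marrow, and 5.65 and 4.64 in muscle. All tumours lay more than 3 log2 units above both muscles and below both marrows. The difference from muscle, where Cdc20 was detected on 1 of 2 arrays, was 4.92 ± 0.33 in osteosarcoma (adjusted p = 1.36e-06) and 4.85 ± 0.33 in leiomyosarcoma (adjusted p = 1.36e-06), and that from marrow was -0.43 ± 0.33 and -0.50 ± 0.33, not called. With the mean of its detected probes in place of the brightest, the difference from muscle was 3.60 in both tumours. Mad2l1, the Mad2 protein that binds Cdc20 in the checkpoint complex, ranged over 8.92 to 10.61 in osteosarcoma, 9.39 to 9.77 in leiomyosarcoma, 10.14 to 10.47 in bone marrow and 5.99 to 6.71 in muscle. Its difference from muscle was 3.29 ± 0.38 in osteosarcoma and 3.27 ± 0.38 in leiomyosarcoma, both called. Espl1, separase, which cleaves cohesin, ranged over 6.06 to 7.34 in osteosarcoma, 6.05 to 6.77 in leiomyosarcoma, 7.04 to 7.33 in bone marrow and 4.46 to 4.53 in muscle and was detected on neither muscle; it was at least 2.35-fold and at least 1.87-fold higher in osteosarcoma and leiomyosarcoma. None of the 3 was called between a tumour and marrow.

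All 3 members of the chromosomal passenger complex besides Aurora B were higher in both tumours than in muscle. Incenp, the scaffold that holds the complex together, read 7.59, 8.24, 8.60 and 8.14 in osteosarcoma, 7.97, 8.05, 7.92 and 8.40 in leiomyosarcoma, 9.67 and 9.90 in bone marrow, and 5.26 and 4.79 in muscle. The 3 levels did not overlap: marrow was above every tumour and every tumour above muscle. It was at least 5.78-fold higher in osteosarcoma and at least 5.56-fold higher in leiomyosarcoma than in muscle, and lower than in marrow, with differences of -1.64 ± 0.28 (adjusted p = 0.00063) and -1.70 ± 0.28 (adjusted p = 0.000513). Incenp kept both of these calls under all alternatives tried. Birc5, survivin, which brings the complex to centromeres, ranged over 9.40 to 10.18 in osteosarcoma, 9.04 to 9.78 in leiomyosarcoma, 10.24 to 10.54 in bone marrow and 5.82 to 6.49 in muscle. It differed from muscle by 3.66 ± 0.31 and 3.22 ± 0.31 in osteosarcoma and leiomyosarcoma. Against marrow it was called in leiomyosarcoma only barely, at -1.02 ± 0.31 (adjusted p = 0.0241), and the call was lost without leiomyosarcoma 1 or 3 or without either marrow. Cdca8, borealin, ranged over 8.97 to 10.07 in osteosarcoma, 8.93 to 9.83 in leiomyosarcoma, 10.28 to 10.46 in bone marrow and 4.67 to 6.004 in muscle, with a difference from muscle of 4.31 ± 0.41 in osteosarcoma and 3.99 ± 0.41 in leiomyosarcoma; these were 4.98 and 4.65 without muscle 1 and 3.65 and 3.32 without muscle 2.

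Among kinetochore and centromere proteins, Cenpa, the histone H3 variant that marks the centromere, read 11.53, 12.75, 12.51 and 12.13 in osteosarcoma, 12.18, 12.86, 12.43 and 12.81 in leiomyosarcoma, 12.59 and 12.79 in bone marrow, and 8.71 and 7.92 in muscle. Tumours and marrow overlapped, and both muscles lay lower although Cenpa was detected on both of them. The difference from muscle was 3.92 ± 0.35 in osteosarcoma and 4.25 ± 0.35 in leiomyosarcoma, and from marrow -0.46 ± 0.35 and -0.12 ± 0.35, not called. With the mean of its detected probes the differences from muscle were 2.20 in osteosarcoma and 2.46 in leiomyosarcoma. Ndc80, the subunit that binds microtubule ends, ranged over 6.43 to 7.25 in osteosarcoma, 6.61 to 7.27 in leiomyosarcoma, 7.80 to 8.03 in bone marrow and 4.86 to 4.88 in muscle. It was at least 2.69-fold and at least 2.46-fold higher in the tumours than in muscle, where it was not detected. On the unsubtracted matrix the Ndc80 difference of leiomyosarcoma from muscle was 0.96 and not called. Its partner Nuf2 was dim in the tumours, detected on 1 of 4 osteosarcomas and 1 of 4 leiomyosarcomas, and read 5.995 and 6.88 in marrow. Nuf2 was lower than in marrow in osteosarcoma (-1.37 ± 0.29) and leiomyosarcoma (-1.45 ± 0.29) and not called against muscle (0.29 ± 0.29 and 0.21 ± 0.29). The osteosarcoma call was lost without bone marrow 2 (-0.93, adjusted p = 0.0662), and both were lost on the unsubtracted matrix (-0.62 and -0.67) and with an offset of 50 (-0.85 and -0.88). The Nuf2 probe used is annotated outside the RefSeq mRNAs, and its RefSeq probe was detected on 0 arrays. Ndc80 was called lower than in marrow in leiomyosarcoma (-1.003 ± 0.27, a call lost without leiomyosarcoma 1 or 3 or bone marrow 2), with -0.88 ± 0.27 in osteosarcoma, and its difference between the tumours was 0.13 ± 0.22. Cenpf, a large kinetochore protein, was detected on 3 of 4 arrays of each tumour, ranged from 5.15 to 5.91 in them, and was not called in any comparison with a tumour.

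The kinesins are motors that move or dismantle microtubules. Kif11, the kinesin Eg5 that pushes spindle poles apart, read 6.25, 7.48, 6.74 and 6.62 in osteosarcoma, 5.98, 6.57, 6.59 and 6.88 in leiomyosarcoma, 8.18 and 8.54 in bone marrow, and 4.65 and 4.69 in muscle. The tumours lay between marrow and muscle with no overlap. Kif11 was at least 2.24-fold higher than in muscle in osteosarcoma and at least 1.86-fold in leiomyosarcoma. On the unsubtracted matrix its leiomyosarcoma difference from muscle was 0.87 and not called. Kif11 was lower than in marrow, with differences of -1.58 ± 0.33 (adjusted p = 0.00263) in osteosarcoma and -1.85 ± 0.33 (adjusted p = 0.000924) in leiomyosarcoma. Kif2c, which dismantles microtubules at kinetochores, ranged over 7.94 to 8.58 in osteosarcoma, 7.54 to 7.99 in leiomyosarcoma, 8.51 to 8.64 in bone marrow and 4.51 to 4.60 in muscle. It was at least 5.91-fold and at least 4.42-fold higher in osteosarcoma and leiomyosarcoma than in muscle. Kif4, a kinesin carried on chromosome arms, ranged over 7.47 to 8.48 in osteosarcoma, 7.15 to 7.57 in leiomyosarcoma, 8.44 to 8.50 in bone marrow and 4.73 to 4.98 in muscle, with bounds of at least 5.26-fold and 3.47-fold over muscle. Against marrow Kif4 was called in leiomyosarcoma (-1.06 ± 0.27) and not in osteosarcoma (-0.46 ± 0.27), a call that did not survive leaving out leiomyosarcoma 1 or either marrow.

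Kif23, the motor of the centralspindlin complex that sets up the cleavage plane, had 4 detected probes that did not tell the same story. The brightest, which by rule stands for the gene, is annotated to a transcript outside the RefSeq mRNAs and read 13.08, 13.13, 12.11 and 12.20 in osteosarcoma, 11.52, 11.14, 10.89 and 10.61 in leiomyosarcoma, 8.41 and 8.63 in bone marrow, and 10.07 and 8.59 in muscle. By this probe all osteosarcomas were above all leiomyosarcomas and all tumours above both normal tissues, which overlapped. It made Kif23 the only member called higher in both tumours against both normal tissues (3.89% of all genes were) and the only one called between the tumours, at 1.59 ± 0.35 (adjusted p = 0.0139). The brighter of 2 probes annotated to the RefSeq mRNA read 8.93, 10.15, 9.47 and 9.80 in osteosarcoma, 10.16, 9.25, 9.93 and 9.60 in leiomyosarcoma, 11.07 and 10.88 in bone marrow, and 6.25 and 5.30 in muscle. There marrow was above every tumour, muscle was lowest, and the tumours overlapped. Its differences were 3.81 and 3.96 from muscle and -1.39 (adjusted p = 0.012) and -1.24 (adjusted p = 0.0211) from marrow in osteosarcoma and leiomyosarcoma, and -0.15 between the tumours (adjusted p = 0.815). The second RefSeq probe gave -1.32 and -1.44 against marrow and the fourth probe -0.54 and -0.76, where the brightest gave 4.11 and 2.52. By the brightest probe leiomyosarcoma against muscle was 1.71, and 2.45 or 0.98 (adjusted p = 0.118) without muscle 1 or 2. Which of the probes measures Kif23 was not tested, and the probe sequences are not used here.

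**Figure D3:**
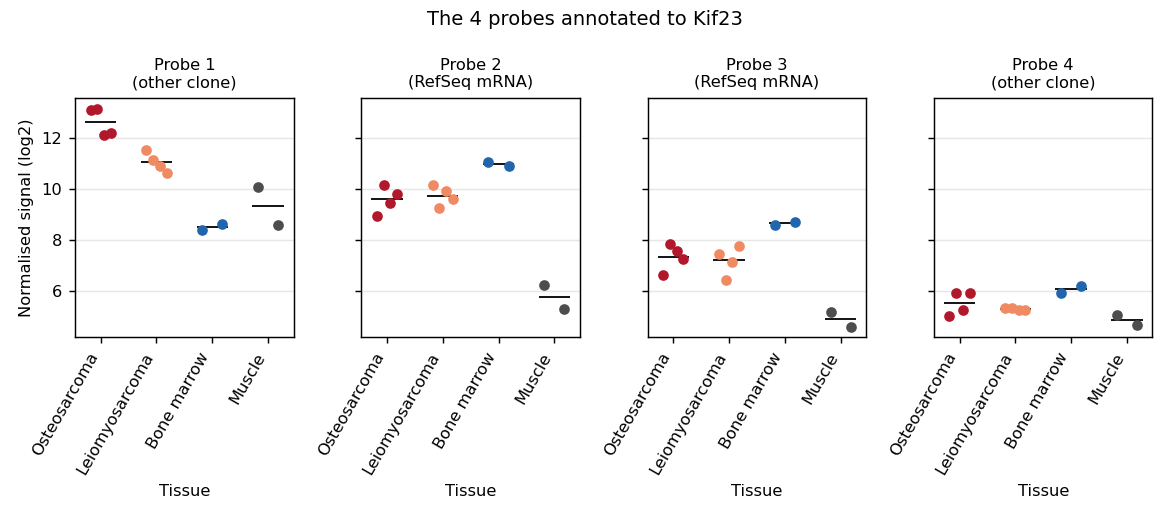
Normalised log2 signal (y axis) of the 4 detected probes annotated to Kif23, 1 panel a probe, in osteosarcoma, leiomyosarcoma, bone marrow and muscle (x axis); points are arrays and lines are group means. Probe 1 has its highest values in osteosarcoma (mean 12.63) and its lowest mean in bone marrow (8.52), while probes 2 to 4 are highest in bone marrow.

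Of the spindle, midzone and cytokinesis proteins, Nusap1, which bundles spindle microtubules near chromosomes, read 9.02, 10.06, 10.27 and 9.65 in osteosarcoma, 9.17, 9.41, 9.61 and 9.60 in leiomyosarcoma, 10.93 and 11.39 in bone marrow, and 6.05 and 5.15 in muscle. Both marrows were above every tumour and both muscles below. The difference from muscle was 4.15 ± 0.35 in osteosarcoma and 3.84 ± 0.35 in leiomyosarcoma, and that from marrow -1.41 ± 0.35 (adjusted p = 0.00831; 0.1 without bone marrow 2) and -1.72 ± 0.35 (adjusted p = 0.00257). Tpx2, which brings Aurora A to spindle microtubules, ranged over 7.43 to 8.20 in osteosarcoma, 7.27 to 7.93 in leiomyosarcoma, 8.34 to 8.77 in bone marrow and 4.79 to 5.61 in muscle. Prc1, which cross-links the antiparallel microtubules of the midzone, ranged over 10.68 to 11.78 in osteosarcoma, 10.51 to 11.03 in leiomyosarcoma, 11.03 to 11.16 in bone marrow and 6.72 to 7.66 in muscle. Tpx2 was called against muscle in both tumours (2.71 ± 0.31 and 2.46 ± 0.31), as was Prc1 (4.06 ± 0.34 and 3.51 ± 0.34), and neither was called against marrow.

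Anln, anillin, a scaffold of the contractile ring, read 9.42, 10, 10.32 and 10.29 in osteosarcoma, 10.55, 9.42, 10.82 and 10.43 in leiomyosarcoma, 9.76 and 10.23 in bone marrow, and 6.90 and 5.13 in muscle. Tumours and marrow overlapped. Against muscle, where 1 of 2 arrays detected it, the difference was 3.99 ± 0.49 in osteosarcoma and 4.29 ± 0.49 in leiomyosarcoma, or 4.87 and 5.17 without muscle 1 and 3.11 and 3.41 without muscle 2. A second, dimmer RefSeq probe of Anln gave -0.07 and 0.41 for these differences and 1.30 for marrow over muscle. Top2a, the topoisomerase that untangles sister chromatids, read 7.94, 9.68, 9.38 and 8.24 in osteosarcoma, 8.23, 8.44, 8.88 and 8.85 in leiomyosarcoma, 9.16 and 9.25 in bone marrow, and 5.39 and 4.61 in muscle. Osteosarcomas 2 and 3 were above both marrows and osteosarcomas 1 and 4 below them, the widest range of a member within that tumour. It was at least 9.17-fold higher in osteosarcoma and at least 7.94-fold higher in leiomyosarcoma than in muscle and was not called against marrow. Besides those of Kif23, 13 further probes of 9 members were detected on at least 2 arrays. With that 1 Anln probe in osteosarcoma as the exception, they gave tumour minus muscle differences of the same sign as the probe used. Probes below this filter are not counted. Cdk1 kept 1 of 3 probes and Nusap1 1 of 4, all annotated to RefSeq mRNAs. Their other probes were each detected on at most 1 array.

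Against bone marrow most members had lower levels in the tumours, by amounts that seldom passed the thresholds. In osteosarcoma 5 members were called lower (Aurkb, Incenp, Nuf2, Kif11 and Nusap1) and 1 higher (Kif23 by its brightest probe), where 13% of all genes were called lower and 14.8% higher. In leiomyosarcoma 9 were called lower (those 5 with Bub1b, Birc5, Ndc80 and Kif4) and again Kif23 alone was higher, against 12.7% and 15.2% of all genes. The median difference was -0.61 and -0.79, beside 0.03 and 0.00 over all genes, and 21 and 23 of 25 differences were below 0. Marrow was above every tumour without overlap for 13 members in osteosarcoma, against 27.6% of all genes, and for 21 in leiomyosarcoma, against 29.1%. The count of 5 fell to 3 without bone marrow 2 and with the background level as a block, and the count of 9 fell to 5 without leiomyosarcoma 1 or without bone marrow 2. The summed signal of 10 neutrophil lineage markers was 808 to 1690 in osteosarcoma, 597 to 1200 in leiomyosarcoma and 352000 to 371000 in bone marrow, and that of 6 erythroid markers 1490 to 14400, 3140 to 26800 and 65900 to 71000. Of the 10 neutrophil lineage markers 4 to 8 were detected per osteosarcoma and 5 to 6 per leiomyosarcoma. Ngp and Ctsg were detected on 0 tumour arrays, and Camp on no leiomyosarcoma. The sum of 7 macrophage markers was 5280 to 13200 in osteosarcoma and 16000 to 21700 in leiomyosarcoma, against 1370 to 1830 in marrow. The part of these cells in the result was not tested.

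**Figure D4:**
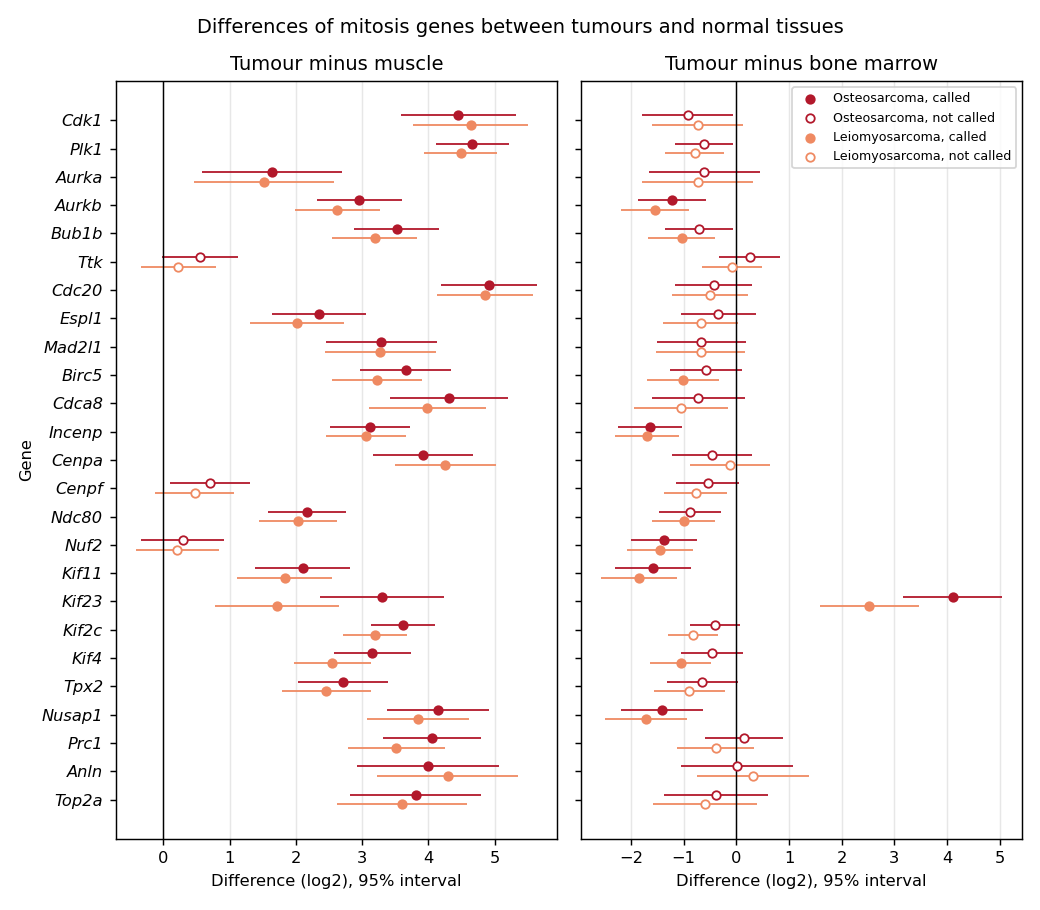
Difference of each tested mitosis gene (rows) between osteosarcoma (dark) or leiomyosarcoma (light) and muscle (left panel) or bone marrow (right panel), on the log2 scale with 95% intervals; filled points were called. Of 25 genes 22 are called above muscle in each tumour, while against marrow most points lie left of 0 and Kif23 lies far right.

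Few members were called between osteosarcoma and leiomyosarcoma, as were few of all genes. Of 25 members 1 was called higher in osteosarcoma, Kif23 by its brightest probe, and 0 lower, where 3.31% of all genes were called higher and 4.34% lower. The median difference was 0.25. After Kif23 the members with the smallest p-values were Kif4 (0.60 ± 0.22, adjusted p = 0.099) and Kif2c (0.42 ± 0.18, adjusted p = 0.161), neither of them called. For Cdk1 the difference was -0.19 with a 95% interval of -0.89 to 0.52, and for Plk1 0.17 with -0.28 to 0.63. Among the members not called, the 95% intervals reached down to -1.17 (Anln) and up to 1.14 (Prc1), so the lack of a call does not show that the tumours are alike.

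The widest median difference was that between the normal tissues. In bone marrow 23 members were called higher and 0 lower, against 20.3% and 19.7% of all genes, with a median difference of 3.98. Ttk was not called, nor was Kif23 by its brightest probe (-0.81 ± 0.50), which by the RefSeq probe was 5.20 higher. The bound over muscle was 27.8-fold for Cdk1, 21.6-fold for Plk1, 18-fold for Incenp and 14.8-fold for Aurkb. In all, 21 members were called higher than in muscle in osteosarcoma, leiomyosarcoma and bone marrow each, as were 8.57% of all genes. The design sets tumours beside normal bone marrow and muscle, so the difference between leiomyosarcoma and muscle was tested against that between osteosarcoma and bone marrow, which share no array. It was greater for 22 members and smaller for 1, Kif23, against 20.8% and 19.5% of all genes, with a median of 3.80. By arithmetic this contrast equals bone marrow minus muscle plus leiomyosarcoma minus osteosarcoma, so it largely restates the gap between the normal tissues. For called members detected on neither muscle, save Nuf2, it has only a lower bound, which for Cdk1 was at least 4.99 (adjusted p = 1.37e-05). Cdc20, detected on 1 of 2 muscles, gave 5.28 ± 0.47 (adjusted p = 6.03e-06). Kif23 gave -2.40 by its brightest probe and 5.35 by the RefSeq probe.

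Within a tumour type the members tended to be low on the same array. Osteosarcoma 1 had the lowest level of the 4 osteosarcomas for 20 of 25 members, where it was lowest for 23.2% of all genes, and the highest for 0, where it was highest for 19.6%. Osteosarcomas 2 and 3 were highest for 13 and 10 members, against 29.9% and 24.5% of all genes. Leiomyosarcoma 1 was the lowest of its 4 for 17 members, against 24.5%. The median SD of a member was 0.47 in osteosarcoma and 0.28 in leiomyosarcoma, beside 0.32 and 0.29 over all genes. Ranges in osteosarcoma ran between 0.52 for Nuf2 and 1.74 for Top2a. Osteosarcoma 1 is the array with 63000 units of skeletal muscle marker signal. Leiomyosarcoma 1 had 530 such units, against 1380, 430 and 257 in leiomyosarcomas 2, 3 and 4. Whether this signal has a part in the low levels was not tested. Without osteosarcoma 1 the counts of called members were still 22 higher than in muscle and 5 lower than in marrow. Muscle 1 was above muscle 2 for 19 of 25 members, against 49.8% of all genes, and bone marrow 1 above bone marrow 2 for 4, against 48.2%.

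Other genes of the mitotic pathway were read from 6 lists, of which 82 genes were tested. Against muscle 42 were called higher and 1 lower in osteosarcoma (18.5% and 14.5% of all genes) and 38 higher and 2 lower in leiomyosarcoma (20.1% and 15.1%). Against bone marrow 2 were higher and 17 lower in osteosarcoma (14.8% and 13% of all genes) and 4 higher and 21 lower in leiomyosarcoma (15.2% and 12.7%). The count of 17 was 7 without bone marrow 2 and 11 without bone marrow 1, and that of 21 was 14 without bone marrow 2; on the unsubtracted matrix they were 6 and 10. The 2 higher than marrow in osteosarcoma were Kif3a and Cdc16, and the 4 in leiomyosarcoma these with Zwint (1.26, not called without bone marrow 2) and Anapc4 (1.05, not called without leiomyosarcoma 4 or bone marrow 1), which are named after their values were seen. Of 22 further kinetochore and checkpoint genes, 12 were higher than in muscle in osteosarcoma and 14 in leiomyosarcoma (median 1.14 and 1.43). Hjurp, the chaperone that loads Cenpa, differed from muscle by 3.51 and 2.98, and Ska2, of a complex that couples kinetochores to microtubules, by at least 3.78-fold and at least 4.18-fold. Of 15 kinesin and spindle genes, 11 and 9 were higher. Gtse1, a microtubule-associated protein of late cell cycle stages, differed from muscle by at least 9.17-fold and at least 19.5-fold. Kif3a, a kinesin known for transport in cilia and not for mitosis, was the only gene of that list called higher than both normal tissues in both tumours (1.19 and 1.38 over muscle, 1.87 and 2.06 over marrow), and its muscle calls were lost without muscle 1, that of osteosarcoma also without osteosarcoma 2.

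Of 14 condensin and cohesin genes 6 were higher than in muscle in each tumour, against 18.5% of all genes in osteosarcoma and 20.1% in leiomyosarcoma. Ncaph, a condensin subunit, differed from muscle by 3.24 and 2.70. Stag2, a cohesin subunit, did not follow it: it was detected on all arrays, was not called against muscle (-0.28 and -0.44) and was lower than in marrow (-1.17 and -1.32), a call that in osteosarcoma did not hold without osteosarcoma 4 or either marrow. Of 11 core subunits of the anaphase-promoting complex tested, 1 was higher (Cdc23, 1.24, named after its value was seen) and 0 lower than in muscle in osteosarcoma, and 0 higher and 1 lower in leiomyosarcoma, with medians of -0.09 and -0.12. Of all genes 18.5% were higher and 14.5% lower in osteosarcoma, and 20.1% and 15.1% in leiomyosarcoma. Anapc13 read 10.96, 10.94, 10.26 and 10.87 in osteosarcoma, 10.08, 10.54, 10.32 and 10.17 in leiomyosarcoma, 10.81 and 10.60 in bone marrow, and 11.51 and 11.80 in muscle. Its muscles were above every other array, with a called difference of -1.38 in leiomyosarcoma and -0.90 in osteosarcoma, which missed the size threshold. Cdc16 differed by 0.73 and 0.68 from muscle, not called, and by 1.20 and 1.14 from marrow, calls that were lost without bone marrow 1 and, in leiomyosarcoma, also without bone marrow 2.

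Of 13 genes of mitotic entry and its transcription programme, 8 were higher than in muscle in osteosarcoma and 6 in leiomyosarcoma (18.5% and 20.1% of all genes). Pbk, a mitotic kinase, read 9.18, 9.99, 8.67 and 9.17 in osteosarcoma, 8.38, 9.80, 9.16 and 8.44 in leiomyosarcoma, 9.87 and 10.01 in bone marrow, and 5.09 and 4.48 in muscle. Osteosarcoma 2 lay between the marrows, and every other tumour lay below both. Pbk was at least 12.5-fold and at least 10.1-fold higher in osteosarcoma and leiomyosarcoma than in muscle, where it was not detected. Haspin, the kinase that marks histone H3 at centromeres, was at least 2.99-fold and at least 2.03-fold higher. Of 7 cytokinesis genes 4 were higher and 1 lower than in muscle in osteosarcoma (Cit, Cep55, Chmp4b and Cdca3 higher) and 3 higher and 1 lower in leiomyosarcoma (the same but Chmp4b). Of all genes 18.5% were higher and 14.5% lower in osteosarcoma, and 20.1% and 15.1% in leiomyosarcoma. Cit, Cep55 and Chmp4b are named after their values were seen. Cdca3 differed from muscle by 3.58 and 2.97. Vps4a, an ATPase of membrane scission with work outside mitosis too, was the gene that was lower, with differences of -1.20 and -1.26.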

How the data were processed

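Total RNA was extracted with Trizol and labelled with the Ambion MessageAmp kit, per the labels' protocols. The deposited intensity values were average signals from which 1 background constant per array had been subtracted, per the file headers and by comparison with the unsubtracted matrix (largest deviation 0.00502 to 0.00969), with no normalisation between arrays. Beside each signal the authors deposited a detection p-value, of unstated derivation. The matrix held the same intensities before subtraction, and its deposited values were linear.

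Background correction and quantile normalisation of the deposited signals used limma's neqc (3.58.1, R 4.3.3; offset 16), with the background estimated through the detection p-values, and the result was on the log2 scale. Of 45281 probes, 34885 had 1 gene symbol, 18 several and 10378 none listed; 34807 matched RefSeq (GRCm38.p6). Probes with detection p under 0.05 on at least 2 arrays were kept (18013 named), 1 probe a gene, that of highest mean (4323 of 11754 genes had several). Of 64 member probes 41 were kept. A limma model of 4 group means on all 12 arrays (degrees of freedom 8 residual and 3.634 prior) was adjusted over all genes, two-sided. Differences are given ± moderated SE. It was tested on simulated data. Figures used matplotlib (3.10.9, Python 3.11.15).

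The members, lists and motifs were chosen with earlier results of these data known. All members are named, with the 2 genes of each other list whose mean tumour minus normal difference was largest in size. Further genes of those lists are marked as named after their values were seen. Groups and replicate numbers follow the labels; same-numbered samples did not deviate together. Alternatives covered background, scaling, offset, filter, probe choice, model, blocks and each array left out. The fit on the brightest RefSeq mRNA probe was added after the data were seen.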

Additional observations from a re-analysis of the deposited data

Results flagged for a closer look

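In osteosarcoma 1 Cdc20 lay apart from the rest of its group, at 9.38 against 10.21 to 10.33 in the other 3, a gap of 0.872 of the group's range. Ndc80 did the same, at 6.43 against 7.22 to 7.25, a gap of 0.963 of the range. These were 2 of 50 groups of 4 examined, and chance alone picks out about 1 in 20.

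The tumour and normal difference was unequal between the tissue pairs for 23 members, by the tested contrast of leiomyosarcoma minus muscle against osteosarcoma minus bone marrow (log2). This contrast was called higher for 22 members and lower for 1, where 20.8% and 19.5% of all genes were called. By arithmetic it equals bone marrow minus muscle plus leiomyosarcoma minus osteosarcoma, so it largely restates the gap between the normal tissues. Where a member was detected on neither muscle the fitted value is no measured size, and its lower bound, save for Nuf2, follows as "at least". Among kinases it was 5.56 for Cdk1 (at least 4.99), 5.10 for Plk1 (at least 4.26), 2.13 for Aurka, 3.84 for Aurkb (at least 3.56) and 3.90 for Bub1b. Around the anaphase-promoting complex it was 5.28 for Cdc20, 2.36 for Espl1 (at least 1.24) and 3.94 for Mad2l1. In the passenger complex it was 3.80 for Birc5, 4.70 for Cdca8 and 4.70 for Incenp (at least 4.12). For kinetochore genes it was 4.72 for Cenpa, 2.91 for Ndc80 (at least 2.17) and 1.59 for Nuf2. Nuf2 has no lower bound, as it was detected on only 1 of 4 arrays of each tumour. The kinesins gave 3.42 for Kif11 (at least 2.48), 3.60 for Kif2c (at least 2.55), 3.01 for Kif4 (at least 2.25) and -2.40 for Kif23 by its brightest probe. Spindle and midzone genes gave 3.10 for Tpx2, 5.26 for Nusap1, 3.37 for Prc1 and 4.28 for Anln, and Top2a gave 3.99 (at least 3.38). Aurka rested on muscle 2: without muscle 2 it was 1.10 (adjusted p = 0.123), and its call was also lost with the background block (adjusted p = 0.0546), the replicate block (adjusted p = 0.057), and without bone marrow 1 (adjusted p = 0.0506) or bone marrow 2 (adjusted p = 0.0959). Nuf2 lost its call with median scaling (0.96, adjusted p = 0.095), on the unsubtracted matrix (0.72) and without bone marrow 2 (1.14, adjusted p = 0.0547), and with an offset of 50 its size fell below 1. Kif23 changed sign with the probe used.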

How the results depend on the processing

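Over 24 alternatives 21 to 22 members were called higher than muscle in osteosarcoma, and over 25 alternatives 20 to 22 in leiomyosarcoma, with 0 lower in each. The sizes moved more. A member was counted where its fold change over muscle, not the log2 of it, fell by a factor of over 1.5. For Plk1 in osteosarcoma such a move was from 4.66 to 4.03 in log2, with median scaling. On the unsubtracted matrix this held for 19 called members in osteosarcoma and 18 in leiomyosarcoma. It held for 16 and 16 with an offset of 50 and for 6 and 6 with median scaling. With the mean of the detected probes it held for 8 and 6. Against bone marrow the lower count in osteosarcoma was 5 and became 3 with the background level as a block (3 to 5 with 1 array left out). In leiomyosarcoma it was 9 and became 4 on the unsubtracted matrix and 5 with an offset of 50 (5 to 10 with 1 array left out). With the mean of the detected probes or the brightest RefSeq probe, Kif23 was no longer called higher and the counts of 1 higher against marrow in each tumour, 1 higher between tumours and 1 lower in the test between tissue pairs became 0. Bone marrow against muscle gave 0 to 1 lower with 1 array left out (1 without muscle 2). Kif23 changed sign: against marrow to -1.39 in osteosarcoma (RefSeq probe) and -0.23 (mean) or -1.24 (RefSeq) in leiomyosarcoma, between tumours to -0.15, between marrow and muscle to 2.33 (mean) or 5.20 (RefSeq) and between tissue pairs to 1.89 or 5.35. Of the member differences under all alternatives, 4163 kept direction and side of the thresholds, 63 lost a call, 20 gained one and these 8 changed sign; the causes were not tested.

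Median scaling shifted the median of all genes by -0.33 (osteosarcoma) and -0.34 (leiomyosarcoma) against muscle and by -0.25 and -0.27 against marrow. It turned all-gene calls against muscle to 1779 higher and 2145 lower in osteosarcoma, from 2174 and 1710, and to 1879 and 2255 in leiomyosarcoma, from 2358 and 1778, while the member counts stayed at 22 and 0. Same-numbered osteosarcomas and leiomyosarcomas correlated at -0.08 to 0.08 and marrow and muscle at 0.02, and 1 of 4 osteosarcomas correlated best with its own number, so the numbers only name samples. With them as a replicate block 21 members were higher than muscle in each tumour, and 6 and 9 lower than marrow in osteosarcoma and leiomyosarcoma. The shared animal code could not be fitted as a random block. Within the 6 arrays of low background, leiomyosarcomas 1 and 2 gave 21 members above muscle and 8 below marrow; no such set holds osteosarcoma with a normal tissue. Over the 82 other pathway genes, the higher counts against muscle ran from 25 to 42 in osteosarcoma and 22 to 39 in leiomyosarcoma, and the lower counts against marrow from 6 to 21 and from 10 to 28. Signals near background limit the dim members (Ttk, Cenpf, Nuf2). They also limit the muscle values of the 13 members detected on neither muscle and of the 6 detected on 1 of 2. The 6 detected on both muscles vary: Cenpa read 8.71 and 7.92 there, and Birc5 6.49 and 5.82.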
